A study of Homo sapiens with 4 samples.

Results

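HNF4A is a nuclear receptor transcription factor that keeps many genes of the mature liver active, and the regions described here are those that lay nearest to ion channel and synaptotagmin genes. They were taken by symbol, as every region whose closest listed gene belonged to the potassium, calcium, sodium, chloride, TRP and HCN channels, the ligand-gated P2X, nicotinic, GABA and glutamate receptor channels, or the synaptotagmins. The rule used gene names and no measured value, but it was chosen with earlier results of these data known. It found 40 of 5326 regions, nearest to 35 of 4323 listed genes. The series is chromatin immunoprecipitation with sequencing (ChIP-seq), in which an antibody recovers the DNA bound by a protein, and IgG, an antibody with no set target, shows how much DNA comes down without it. There were 4 libraries, 1 per group, named HNF4A at high glucose, IgG at high glucose, HNF4A at low glucose and IgG at low glucose. All came from HCCLM3, an established human hepatocellular carcinoma line, and the labels' protocols describe stable overexpression lines of HCCLM3 made by viral transduction with a CMV promoter vector. The labels do not name the overexpressed gene or give the glucose concentrations, and they list the same high glucose growth medium for all 4 libraries. No RNA was measured, so nothing here shows whether a channel gene was expressed, and hepatocyte markers could not be checked.

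Ion channels open a pore for selected ions in response to voltage, ligands, calcium or mechanical and chemical signals, and are best known from nerve and muscle. Synaptotagmins are membrane proteins of secretory vesicles, several of which sense calcium and trigger fusion. Liver cells also use channels of these families, for volume control, bile secretion, calcium entry and lysosomal ion balance. The genes were divided into 11 regions of potassium channel genes, 14 of calcium, sodium and HCN channel genes, 5 of chloride and TRP channel genes, 7 of ligand-gated channel genes and 3 of synaptotagmin genes. By the RefSeq table, 31 of the 35 genes code for protein and 4 are long noncoding RNAs (KCNQ1OT1, KCNQ1DN, CACNA1C-AS4 and CACNA1C-IT3), which lie in or beside channel genes. GRINA and TRPC4AP matched by symbol but encode an associated membrane protein and an adaptor, not pore subunits. SCNN1A and SCNN1D encode subunits of the epithelial sodium channel, which works in epithelia.

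Promoter sequences are shown for 3 genes whose regions stood above IgG at both glucose levels, so that the letters near the gene start can be read beside the values. They come from RefSeq on GRCh38.p14 and cover 250 bases before and 50 after a start, written in the direction of the gene. The ChIP regions are on hg19, so whether any of them covers these promoters was not examined, and the sequences of the regions themselves were not used here. Capitals mark the letters CAAAG or its reverse complement CTTTG, the core of the sites that HNF4A is known to bind.
KCNK5 (chr6:39229426-39229725, minus strand): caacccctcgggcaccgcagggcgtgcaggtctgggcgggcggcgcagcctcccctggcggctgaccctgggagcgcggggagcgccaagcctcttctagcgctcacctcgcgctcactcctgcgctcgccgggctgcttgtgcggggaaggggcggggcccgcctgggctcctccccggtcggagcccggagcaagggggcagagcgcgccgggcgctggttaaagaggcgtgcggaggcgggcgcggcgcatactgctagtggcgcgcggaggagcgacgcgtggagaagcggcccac
P2RX7 (chr12:121132626-121132925, plus strand): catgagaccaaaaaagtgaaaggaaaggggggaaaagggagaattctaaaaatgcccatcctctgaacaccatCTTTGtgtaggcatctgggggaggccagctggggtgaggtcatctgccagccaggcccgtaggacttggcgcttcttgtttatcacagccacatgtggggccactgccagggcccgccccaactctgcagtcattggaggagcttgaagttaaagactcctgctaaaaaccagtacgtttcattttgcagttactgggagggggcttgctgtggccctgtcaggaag
TRPM4 (chr19:49157542-49157841, plus strand): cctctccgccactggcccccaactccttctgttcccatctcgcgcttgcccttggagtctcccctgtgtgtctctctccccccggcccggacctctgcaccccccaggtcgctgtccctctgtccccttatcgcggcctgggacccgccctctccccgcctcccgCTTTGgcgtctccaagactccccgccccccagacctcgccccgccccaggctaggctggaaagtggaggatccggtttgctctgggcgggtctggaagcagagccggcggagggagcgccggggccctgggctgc
A promoter was found for 21 of the 35 genes, using the first listed start of each. CAAAG on either strand was present in 6 of these 21 promoters (28.6%), against 47.6% of 27305 promoters of all genes. The longer site CAAAGTCCA, which contains that core, was in 0 of the 21 and in 0.359% of all. The promoters shown differ in base content, with 76.0% G and C for KCNK5, 53.3% for P2RX7 and 71.0% for TRPM4, against a median of 69.3% over the 21 and 58.3% over all genes. The 3 promoters hold 0, 1 and 1 copies of the core in that order. Whether the lower share of promoters with CAAAG goes with their base content was not tested, and the letters alone do not show binding.

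Over all 5326 regions, the HNF4A libraries had sums of 402237 reads (high glucose) and 295460 reads (low), and the IgG libraries 249744 and 198683. The 40 regions held 2314 HNF4A and 1441 IgG reads at high glucose, and 1609 HNF4A and 1007 IgG reads at low glucose. A region held a median of 46 HNF4A and 21 IgG reads under high glucose, and of 30.5 HNF4A and 14.5 IgG reads at low glucose. Region lengths reached 3564 bp with a median of 894 bp, against 1030 bp over all regions. Ratios below are log2 ratios of reads, each divided by its relative library size, and brackets hold the exact 95% Clopper-Pearson interval. These intervals cover counting error only. With 1 library per group, no difference has a replicate check, and every interval compares libraries, not conditions. Coordinates are hg19, and each region carries the name of its closest gene in the deposited tables, which does not show that HNF4A regulates it.

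**Figure D1:**
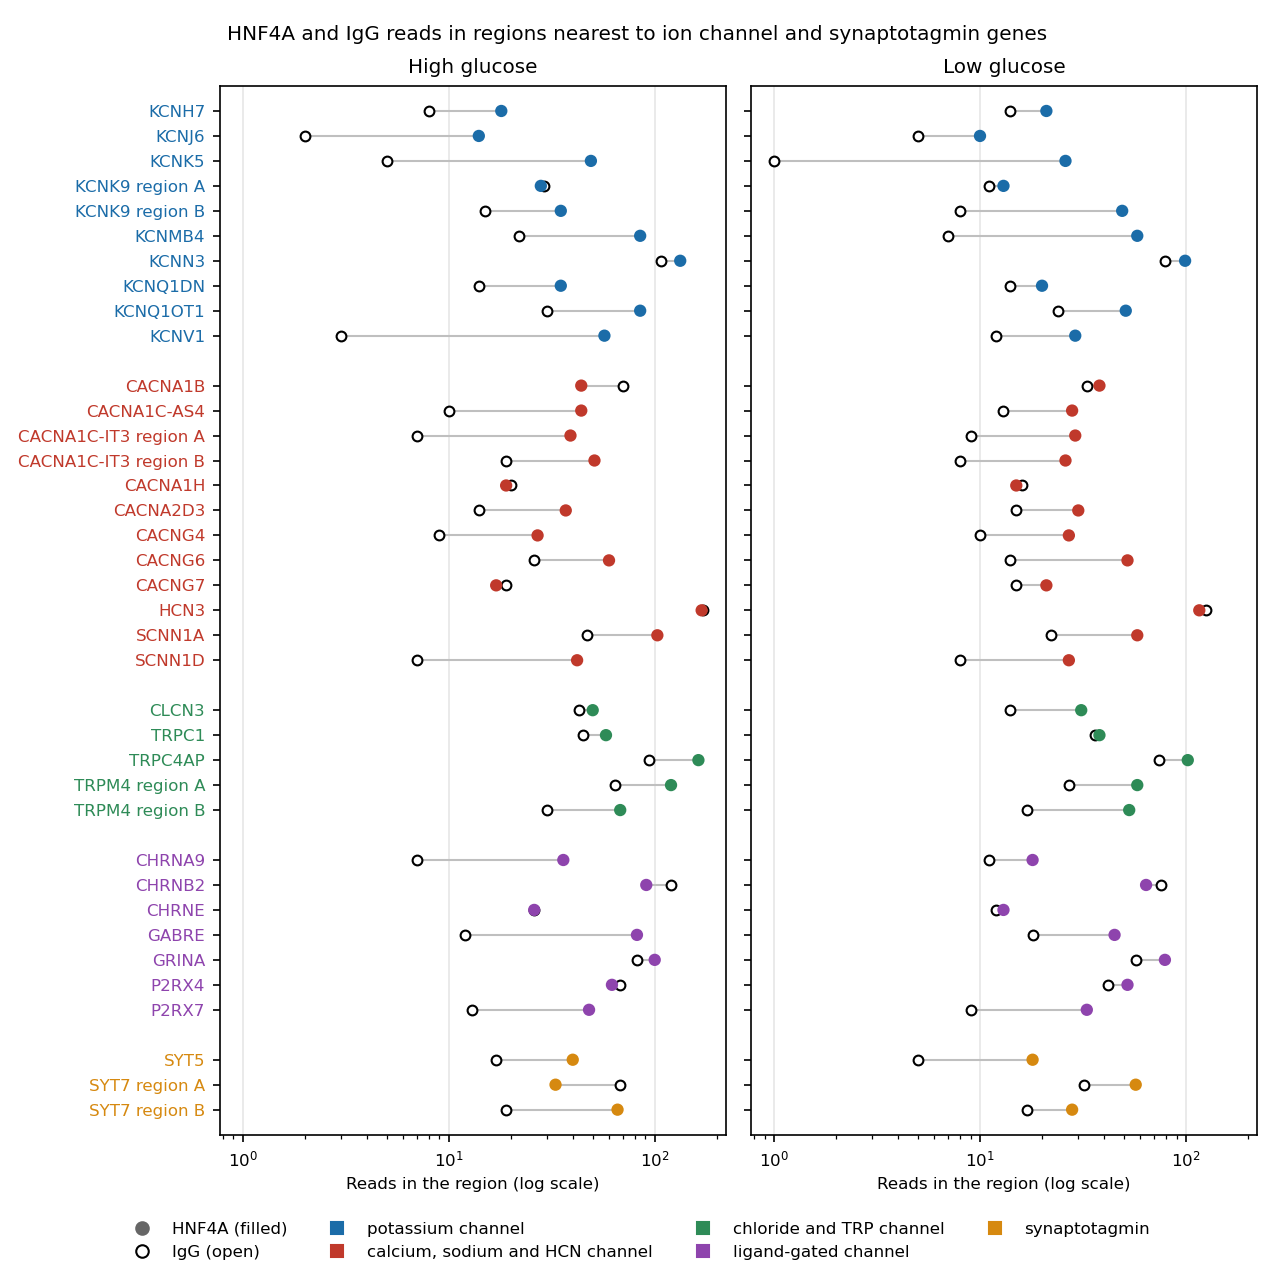
Reads in 37 of the 40 regions, on a log axis, at high glucose (left) and low glucose (right), with filled points for HNF4A and open points for IgG, coloured by gene group. An open point that cannot be seen lies under the filled one, as for CHRNE with 26 reads in both libraries at high glucose, and the widest gap at high glucose is that of KCNV1, with 57 HNF4A and 3 IgG reads.

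HNF4A stood at least 2-fold above IgG in 21 of the 40 regions (52.5%) at high glucose, where 41.6% of all 5326 regions did so. At low glucose this held for 18 of 40 (45.0%), against 46.8% of all regions. The median log2 ratio was 1.03 at high glucose, against 0.79 over all regions, and 0.89 at low glucose, against 0.94. Counting intervals lay above 0 in 23 regions (57.5%) at high glucose, where 55.2% of all regions did so, and in 20 (50%) at low glucose, where 56.2% did so. The share past 2-fold was thus above the background under high glucose and near it under low glucose, and with 1 library per group no test of the set was made. At the other side, 1 region (2.50%) was at least 2-fold below IgG under high glucose, where 1.05% of all regions were, and 0 under low glucose, where 0.488% were. At both glucose levels, 15 of the 40 (37.5%) were at least 2-fold above IgG, against 31.4% of all regions. Of any size, HNF4A was above IgG in 29 regions (72.5%) at high glucose, where 84.2% of all regions were, and in 34 (85.0%) at low glucose, where 91.5% were. It lay below IgG in 11 regions (27.5%) at high glucose, where 15.8% of all regions did, and in 6 (15.0%) at low glucose, where 8.51% did. An interval wholly below 0 was found for 3 regions (7.50%) at high glucose, CACNA1B, CHRNB2 and SYT7 region A, where 2.07% of all regions had one. At low glucose 0 regions had one, where 0.713% of all did. HNF4A was below IgG in both pairs of libraries in 5 of 40 (12.5%), among them CACNA1H, CHRNB2 and HCN3, against 4.06% of all regions. With each ratio centred on its median over all regions, 22 of 40 (55.0%) lay above under high glucose in place of 29, and 20 (50%) under low glucose in place of 34. The count at least 2-fold above IgG was then 9 of 40 in place of 21 under high glucose, and 3 in place of 18 under low glucose. The share of all regions past 2-fold after the same centring is not given here, so these counts are not set against a background. In the authors' deposited table for high glucose, 3 of the 40 (7.50%) had an unadjusted p under 0.05 with HNF4A higher, where 4.96% of all regions had, and 0 with HNF4A lower, where 0.0188% had. The authors' deposited table of the low glucose libraries had 3 (7.50%), against 3.04% of all. The lowest FDR of the 40 was 0.865 and 0.820 in the authors' deposited tables for high and low glucose.

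**Figure D2:**
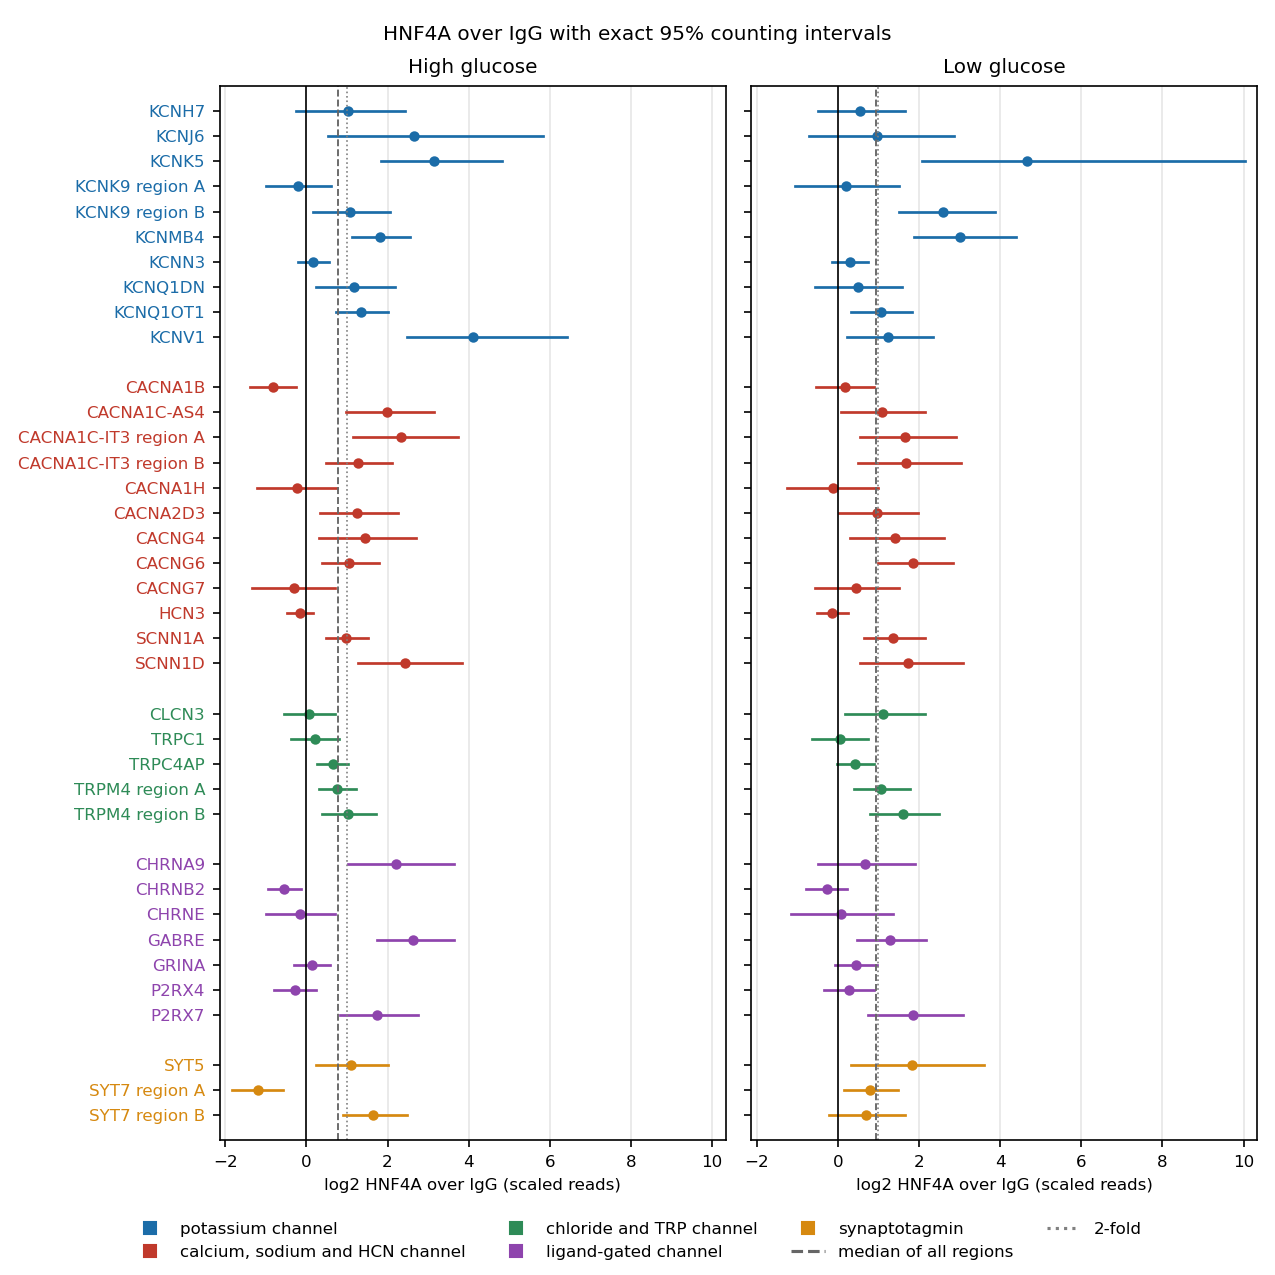
Log2 ratio of scaled HNF4A over IgG reads for 37 of the 40 regions at high glucose (left) and low glucose (right), with exact 95% counting intervals as lines. Solid, dotted and dashed lines mark equality, 2-fold and the median of all regions, and the highest points are KCNV1 at high glucose, at 4.10, and KCNK5 at low glucose, at 4.67.

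Potassium channels set the resting potential and end electrical signals, and their genes held the highest ratios of the 40 regions at either glucose level. At high glucose 8 of 11 regions were at least 2-fold above IgG, with a median log2 ratio of 1.18, and at low glucose 5 of 11 were, with a median of 0.97. Of all regions 41.6% and 46.8% were, with medians of 0.79 and 0.94, so the low glucose count is near the background. KCNK5 encodes a tandem-pore background channel that opens in alkaline conditions, and its region lay on chromosome 6 from 39146215 to 39147180. It held 49 HNF4A and 5 IgG reads with high glucose, and with low glucose 26 HNF4A reads and 1 IgG read, a value the file may use in place of 0. HNF4A was thus far above IgG in both pairs of libraries, with log2 ratios of 3.15 (1.83 to 4.83) and 4.67 (2.07 to 10.03). KCNK5 had unadjusted p-values of 0.0399 (high) and 0.0236 (low) in the authors' deposited tables, and it was the only gene of the 35 with a p under 0.05 in both.

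KCNMB4 encodes an auxiliary subunit of calcium-activated BK channels, abundant in brain. Its region, on chromosome 12 from 70842580 to 70843723, held 85 HNF4A and 22 IgG reads at high glucose, and 58 HNF4A and 7 IgG reads at low glucose. The log2 ratios were 1.80 (1.11 to 2.55) and 3.02 (1.89 to 4.40). KCNV1, which encodes a silent subunit that modifies other voltage-gated channels, had a region on chromosome 8 from 111173182 to 111174052. There 57 HNF4A and 3 IgG reads were found at high glucose, and 29 HNF4A and 12 IgG reads at low glucose. The ratio of KCNV1 was 4.10 (2.48 to 6.42) with high glucose and 1.25 (0.23 to 2.35) with low, with IgG at -2.02 (-4.48 to -0.13) for high over low glucose and HNF4A at 0.84 (0.17 to 1.54). KCNJ6, an inward rectifier opened by G proteins, had few reads, 14 HNF4A against 2 IgG with high glucose and 10 against 5 with low, for ratios of 2.66 (0.54 to 5.84) and 0.97 (-0.71 to 2.87).

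The gene of another tandem-pore channel, KCNK9, had 2 regions on chromosome 8 that behaved differently. Region B (140980651 to 140981422) held 35 HNF4A and 15 IgG reads at high glucose, and 49 HNF4A and 8 IgG reads at low glucose, for ratios of 1.08 (0.17 to 2.06) and 2.59 (1.5 to 3.88). Region A (140732214 to 140733017) held 28 HNF4A and 29 IgG reads at high glucose, and 13 HNF4A and 11 IgG reads at low glucose, so HNF4A was close to IgG. Its ratios were -0.20 (-1.0 to 0.60) and 0.21 (-1.06 to 1.52). KCNN3, a small-conductance calcium-activated channel gene, held the most HNF4A reads of the group, 133 against 107 IgG reads at high and 99 against 79 at low glucose. Such a count did not mean enrichment, since its ratios were 0.17 (-0.21 to 0.55) and 0.30 (-0.14 to 0.74). KCNH7, of the ether-a-go-go-related channels, stood at 1.02 (-0.25 to 2.43) and 0.56 (-0.49 to 1.65).

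At the imprinted KCNQ1 locus, the antisense transcript KCNQ1OT1 and the downstream transcript KCNQ1DN each had a region on chromosome 11. The KCNQ1OT1 region (2721084 to 2722841) held 85 HNF4A and 30 IgG reads at high glucose, and 51 HNF4A and 24 IgG reads at low glucose. Its ratios, 1.36 (0.74 to 2.01) and 1.06 (0.33 to 1.83), were above 0 in both pairs. KCNQ1DN stood at 1.18 (0.24 to 2.18) and 0.49 (-0.57 to 1.59).

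Calcium channels carry the calcium that couples voltage to contraction and secretion. Of the 14 regions of calcium, sodium and HCN channel genes, 7 reached 2-fold over IgG with high glucose and 7 with low, close to the 41.6% and 46.8% of all regions. Median log2 ratios were 1.02 and 1.03. At the CACNA1C locus, which encodes the pore of L-type channels, 3 regions on chromosome 12 were listed nearest to its noncoding transcripts. The CACNA1C-AS4 region (2277879 to 2278509) held 44 HNF4A and 10 IgG reads at high glucose, and 28 HNF4A and 13 IgG reads at low glucose. The first CACNA1C-IT3 region (2448128 to 2448885) held 39 HNF4A and 7 IgG reads, and 29 HNF4A and 9 IgG reads, at the same levels. The second (2523516 to 2524410) held 51 HNF4A and 19 IgG reads, and 26 HNF4A and 8 IgG reads. All 3 were at least 2-fold above IgG at both glucose levels, from 1.28 to 2.33 at high and from 1.08 to 1.67 at low glucose, with every interval above 0.

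The regions of 2 other pore genes were near or below IgG. CACNA1B encodes the N-type channel of nerve terminals, and its region on chromosome 9 (140778515 to 140779564) held 44 HNF4A and 70 IgG reads at high glucose, and 38 HNF4A and 33 IgG reads at low glucose. HNF4A was therefore below IgG at high glucose only, at -0.82 (-1.39 to -0.25), and near it at low glucose, at 0.18 (-0.53 to 0.90). CACNA1H, a T-type channel gene, held 19 HNF4A and 20 IgG reads, and 15 HNF4A and 16 IgG reads, at high and low glucose. Its ratios were -0.22 (-1.21 to 0.76) and -0.12 (-1.24 to 0.99). Among auxiliary subunit genes, CACNG6 stood at 1.06 (0.37 to 1.78) and 1.87 (0.99 to 2.83). CACNG4 stood at 1.44 (0.31 to 2.71) and 1.41 (0.31 to 2.62), and CACNA2D3 at 1.26 (0.33 to 2.26) and 0.97 (0.03 to 1.97). CACNG7, a gene that neighbours CACNG6, stood at -0.31 (-1.34 to 0.72) and 0.46 (-0.57 to 1.52).

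The epithelial sodium channel takes up sodium across kidney, lung and gut epithelia. Its SCNN1A region on chromosome 12 (6472193 to 6473656) held 103 HNF4A and 47 IgG reads at high glucose, and 58 HNF4A and 22 IgG reads at low glucose, for ratios of 0.99 (0.47 to 1.52) and 1.37 (0.64 to 2.15). SCNN1D, on chromosome 1 (1216891 to 1218055), held 42 HNF4A and 7 IgG reads, and 27 HNF4A and 8 IgG reads, for ratios of 2.44 (1.27 to 3.84) and 1.73 (0.55 to 3.08). Both genes were thus above IgG in both pairs of libraries. HCN channels carry a pacemaker current. HCN3 held the most HNF4A reads of all 40 regions, 169 against 171 IgG reads at high and 116 against 125 at low glucose, for ratios of -0.16 (-0.48 to 0.15) and -0.13 (-0.51 to 0.24). HNF4A was thus near IgG in both pairs, and its region was also the longest, at 3564 bp.

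Chloride transporters of the CLC family acidify vesicles or carry chloride across membranes, and TRP channels admit cations in response to many signals. All 5 regions of this group had a log2 ratio above 0 at both glucose levels, as did 84.2% and 91.5% of all regions. At least 2-fold was reached by 1 of 5 at high glucose and 3 of 5 at low glucose, where 41.6% and 46.8% of all regions reached it. With centring on the median over all regions, 4 of the 5 turned below 0 at high glucose and 2 of the 5 at low glucose. Any region with a ratio between 0 and that median, 0.79 at high and 0.94 at low glucose, turns in this way. The share of all regions that did so is not given here, so these counts are not set against a background. TRPM4, a cation channel opened by intracellular calcium, had 2 regions on chromosome 19. Region A (49713223 to 49714986) held 120 HNF4A and 64 IgG reads at high glucose, and 58 HNF4A and 27 IgG reads at low glucose. Region B (49728452 to 49729690) held 68 HNF4A and 30 IgG reads, and 53 HNF4A and 17 IgG reads. The ratios of region A were 0.76 (0.31 to 1.22) and 1.08 (0.39 to 1.79), and those of region B 1.03 (0.39 to 1.71) and 1.61 (0.80 to 2.50), so both regions were above IgG in both pairs. CLCN3, an endosomal chloride-proton exchanger gene, stood at 0.07 (-0.55 to 0.69) and 1.12 (0.17 to 2.15). TRPC1 stood at 0.22 (-0.37 to 0.81) and 0.05 (-0.64 to 0.75), and the adaptor gene TRPC4AP at 0.65 (0.27 to 1.03) and 0.44 (-0.01 to 0.89).

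Ligand-gated channels open when a transmitter or ATP binds, and their 7 regions had the lowest medians of the 5 groups, at 0.14 at high and 0.44 at low glucose. At high glucose 3 of the 7 were at least 2-fold above IgG, and at low glucose 2 of the 7 were, against 41.6% and 46.8% of all regions. The high glucose count is thus near the background. GABRE encodes the epsilon subunit of GABA-A receptors, and its region on chromosome X (151154029 to 151155141) held 82 HNF4A and 12 IgG reads at high glucose, and 45 HNF4A and 18 IgG reads at low glucose. It stood at 2.63 (1.74 to 3.64) and 1.3 (0.48 to 2.17), and its unadjusted p in the authors' deposited table for high glucose was 0.0200. CHRNA9, a nicotinic receptor subunit gene, held 36 HNF4A and 7 IgG reads at high glucose, and 18 HNF4A and 11 IgG reads at low glucose. The excess of CHRNA9 over IgG, 2.22 (1.03 to 3.63) at high glucose, was 0.68 (-0.48 to 1.91) at low glucose.

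P2X channels are opened by extracellular ATP, and the genes of P2RX7 and P2RX4 lie close together on chromosome 12. The P2RX7 region (121582017 to 121582909) held 48 HNF4A and 13 IgG reads at high glucose, and 33 HNF4A and 9 IgG reads at low glucose, for ratios of 1.74 (0.83 to 2.75) and 1.85 (0.75 to 3.10). That of P2RX4 (121647413 to 121649059) held 62 HNF4A and 68 IgG reads, and 52 HNF4A and 42 IgG reads, for -0.28 (-0.80 to 0.24) and 0.28 (-0.33 to 0.90). HNF4A reads were thus more numerous in the P2RX4 region, which is longer, at 1647 bp against 893 bp. Per kb, scaled HNF4A reads were higher in the P2RX7 region, at 48.9 against 34.3 with high and 37.0 against 31.6 with low glucose. Of the pair, P2RX7 had both intervals above 0. CHRNB2, a nicotinic subunit gene of brain receptors, held 91 HNF4A and 120 IgG reads at high glucose, and 64 HNF4A and 76 IgG reads at low glucose. It was below IgG at both levels, at -0.55 (-0.95 to -0.14) and -0.27 (-0.78 to 0.22). CHRNE, of the muscle nicotinic receptor, stood at -0.15 (-0.99 to 0.70) and 0.09 (-1.16 to 1.35), and GRINA at 0.14 (-0.30 to 0.58) and 0.44 (-0.07 to 0.96).

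Synaptotagmins were represented by SYT5 and SYT7. SYT7 is a high-affinity calcium sensor of vesicle and lysosome fusion, and its 2 regions lay 13.1 kb apart on chromosome 11. Region A (61334448 to 61335138) held 33 HNF4A and 68 IgG reads at high glucose, and 57 HNF4A and 32 IgG reads at low glucose. Region B (61348259 to 61349441) held 66 HNF4A and 19 IgG reads at high glucose, and 28 HNF4A and 17 IgG reads at low glucose. HNF4A in region A was thus below IgG at high glucose and above it at low glucose, at -1.19 (-1.84 to -0.57) and 0.81 (0.16 to 1.48). Centred on the median over all regions, its low glucose value turned to -0.13. Region B was above IgG at high glucose, at 1.65 (0.90 to 2.47), and at 0.69 (-0.23 to 1.66) at low glucose. SYT5, a calcium sensor of dense-core vesicles, held 40 HNF4A and 17 IgG reads, and 18 HNF4A and 5 IgG reads, for 1.09 (0.24 to 2.0) and 1.82 (0.34 to 3.61).

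Partners of synaptotagmins in vesicle fusion (56 listed genes, none of them a member) had 12 genes with 1 region each. At least 2-fold excess over IgG was seen in 6 of the 12 at high glucose, with a median of 0.83, and in 8 of the 12 at low glucose, with a median of 1.23, where 41.6% and 46.8% of all regions had it. STX4, a syntaxin of the plasma membrane, had the highest ratios of the 12, on few IgG reads. It held 30 HNF4A and 2 IgG reads at high glucose, and 26 HNF4A reads and 1 IgG read at low glucose. That 1 may stand in place of 0, and the low glucose reads were under the 30 asked of named regions. The ratios of STX4 were 3.76 (1.78 to 6.87) and 4.67 (2.07 to 10.03). RIMS3, of the active zone, stood at 2.55 (1.47 to 3.84) and 1.81 (0.56 to 3.26), and NRXN2, a presynaptic adhesion gene, at 1.24 (0.49 to 2.04) and 1.65 (0.59 to 2.84). HNF4A was above IgG for 7 of the 12 at high glucose and for 12 of the 12 at low glucose, where it was for 84.2% and 91.5% of all regions. Among those below IgG at high glucose, picked after their values were seen, were CPLX1, a complexin gene, at -1.66 (-3.15 to -0.36), and BSN, of the active zone, at -0.73 (-1.45 to -0.03). At low glucose CPLX1 stood at 1.17 (-0.19 to 2.69) and BSN at 0.39 (-0.37 to 1.17).

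Neighbouring regions of these genes could be compared within the same 2 libraries, so that library size cancels. There were 9 pairs of member regions that directly followed each other among the members of a chromosome, within 300 kb, chosen after the values were seen. The interval of the difference left out 0 in 4 pairs with high glucose and in 2 with low. How often this held for neighbouring pairs of all regions is not given here. SYT7 region A minus region B was -2.84 (-3.87 to -1.82) with high glucose and 0.11 (-1.07 to 1.27) with low. P2RX7 minus P2RX4 was 2.02 (0.94 to 3.15) and 1.57 (0.27 to 2.96), and KCNK9 region A minus region B was -1.27 (-2.54 to -0.02) and -2.37 (-4.17 to -0.59). CACNG7 minus CACNG6 was -1.37 (-2.63 to -0.10) and -1.41 (-2.82 to 0.01). The 2 TRPM4 regions, 13.5 kb apart, differed by -0.27 (-1.09 to 0.53) and -0.54 (-1.67 to 0.57), and no difference was detectable between them at this depth. The same was true of the KCNQ1 and CACNA1C pairs.

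Per length, regions differed more in IgG than in HNF4A. Over the 37 regions plotted here, the SD of log2 scaled reads per kb was 0.44 for HNF4A and 1.20 for IgG at high glucose, and 0.52 for HNF4A and 1.05 for IgG at low glucose. Over all 40 regions it was 0.65 and 1.33, and 0.79 and 1.36, so that the HNF4A spread lay above that of all regions with the 40 and below it with the 37. All 5326 regions showed the same order, at 0.59 and 1.06 at high and 0.67 and 1.09 at low glucose. At high glucose the 21 regions at least 2-fold above IgG had a median of 46.8 HNF4A and 16.0 IgG reads per kb. Those below IgG, 11 in number, had a median of 38.1 HNF4A and 51.3 IgG reads per kb. IgG density did not overlap between these sets, at 3.30 to 26.0 per kb in the first and 29.8 to 104 in the second. Over all regions the same sets did overlap, at 1.17 to 143 and 22.96 to 9667 per kb, with medians of 14.6 and 44.9. Since IgG is a term of the ratio, this describes how the ratios came about and is no independent result. CHRNB2, SYT7 region A and CACNA1B had 104, 99.1 and 67.2 IgG reads per kb at high glucose, in that order.

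**Figure D3:**
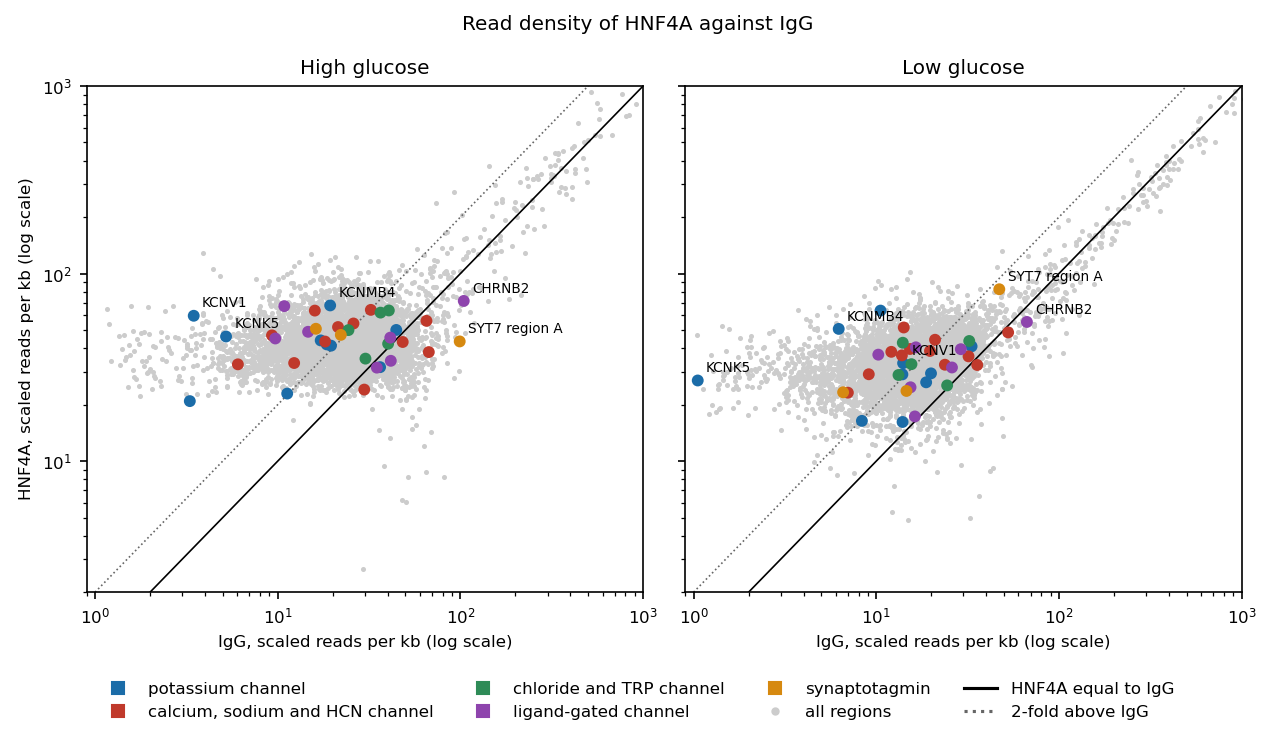
HNF4A against IgG density, in scaled reads per kb on log axes, at high glucose (left) and low glucose (right), with 37 of the 40 regions coloured by gene group over all regions in grey. The 6 regions above 1000 reads per kb lie outside the axes, the solid line marks equality and the dotted line 2-fold, and at high glucose the coloured points spread further along the IgG axis (SD 1.20) than along the HNF4A axis (SD 0.44).

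By chromosome, 7 of the 40 regions (17.5%) lay on chromosome 12, which holds 9.31% of all regions, and 6 (15.0%) on chromosome 19, which holds 6.78%. Of the 7 on chromosome 12, 5 passed 2-fold over IgG with high glucose and 6 with low, where 31.9% and 37.3% of all regions of that chromosome did. These 7 share loci, with 3 at CACNA1C and 2 at the P2X genes. On chromosome 19, 3 of 6 and 4 of 6 did, against 32.7% and 41.3%. On chromosome 1, 1 of 4 passed at each level, against 40.7% and 45.3% of its regions, and on chromosome 11, 3 of 4 passed with high glucose but 1 of 4 with low, against 38.5% and 51.5%.

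Between glucose levels, HNF4A had more scaled reads with high glucose in 33 of the 40 regions (82.5%), and 81.8% of all regions did the same. A difference of at least 2-fold was found in 2 regions (5.00%), SYT5 and SYT7 region B, where 6.78% of all regions had one. The median log2 ratio of high over low glucose was 0.41, against 0.36 over all regions, and with centring on that median 22 of 40 (55.0%) were higher. An interval above 0 was found in 12 of 40 (30%), where 25.8% of all regions had one, and an interval below 0 in 1 (2.50%), where 0.826% had one. With centring, 2 of 40 had an interval above 0 in place of 12. The share of all regions with such an interval after centring is not given here, for HNF4A or for IgG. IgG moved the same way, with 27 of 40 regions higher (67.5%), where 77.9% of all regions were, and a median of 0.43 against 0.51. After centring, 18 of 40 (45.0%) were higher for IgG. In the IgG libraries the interval lay above 0 in 13 of 40 (32.5%), against 26.2% of all regions, and with centring in 2 of 40. It lay below 0 in 2 (5.00%), among them KCNV1, where 1.93% of all did. IgG was at least 2-fold higher in 11 (27.5%), where 19.4% of all regions were, and at least 2-fold lower in 2 (5.00%), KCNJ6 and KCNV1, where 3.38% were. In the authors' deposited table of HNF4A at high over low glucose, 0 of the 40 had an unadjusted p under 0.05, where 4.39% of all regions had one with HNF4A higher.

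An exact binomial test between the HNF4A libraries, 2-sided and adjusted by Benjamini and Hochberg over all 5326 regions, called 5 of the 40 (12.5%) higher for HNF4A at high glucose, where it called 13.0% of all. It called 1 (2.50%) lower, where it called 0.263%. SYT7 region B stood at 1.1 (0.44 to 1.79), with an adjusted p of 0.00947, while IgG there stood at 0.14 (-0.88 to 1.18). TRPM4 region A stood at 0.91 (0.45 to 1.39), adjusted p 0.00198, and IgG at 1.23 (0.56 to 1.94), so both rose. SCNN1A stood at 0.69 (0.21 to 1.18) with IgG at 1.08 (0.32 to 1.88), and TRPC4AP at 0.54 (0.17 to 0.91) with IgG at 0.33 (-0.13 to 0.79). GABRE stood at 0.73 (0.19 to 1.29) with IgG at -0.60 (-1.79 to 0.53). The test took equal scaled reads as its reference, while the median log2 ratio over all regions was 0.36. The intervals of SCNN1A, TRPC4AP and GABRE include that median, and those of SYT7 region B and TRPM4 region A lie above it. The 1 region called lower was SYT7 region A, at -0.92 (-1.59 to -0.28), adjusted p 0.0300, where IgG went the other way, at 1.07 (0.45 to 1.73).

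Of regions with 30 or more reads over the 2 HNF4A libraries, SYT5 at 1.02 (0.18 to 1.91), KCNK9 region A at 0.97 (-0.03 to 2.04), CHRNE at 0.86 (-0.15 to 1.95) and CHRNA9 at 0.86 (0.01 to 1.77) were, with SYT7 region B and TRPM4 region A, the 6 highest. Their IgG ratios were 1.75 (0.25 to 3.54), 1.38 (0.34 to 2.53), 1.1 (0.06 to 2.22) and -0.67 (-2.27 to 0.83). At the other end, KCNK9 region B stood at -0.62 (-1.29 to 0.03), CACNG7 at -0.44 (-1.45 to 0.55) and KCNH7 at -0.36 (-1.35 to 0.62), each with an interval that includes 0. The largest IgG excess at high glucose with 30 or more reads was at CLCN3, at 1.60 (0.71 to 2.59), where HNF4A stood at 0.55 (-0.12 to 1.25).

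**Figure D4:**
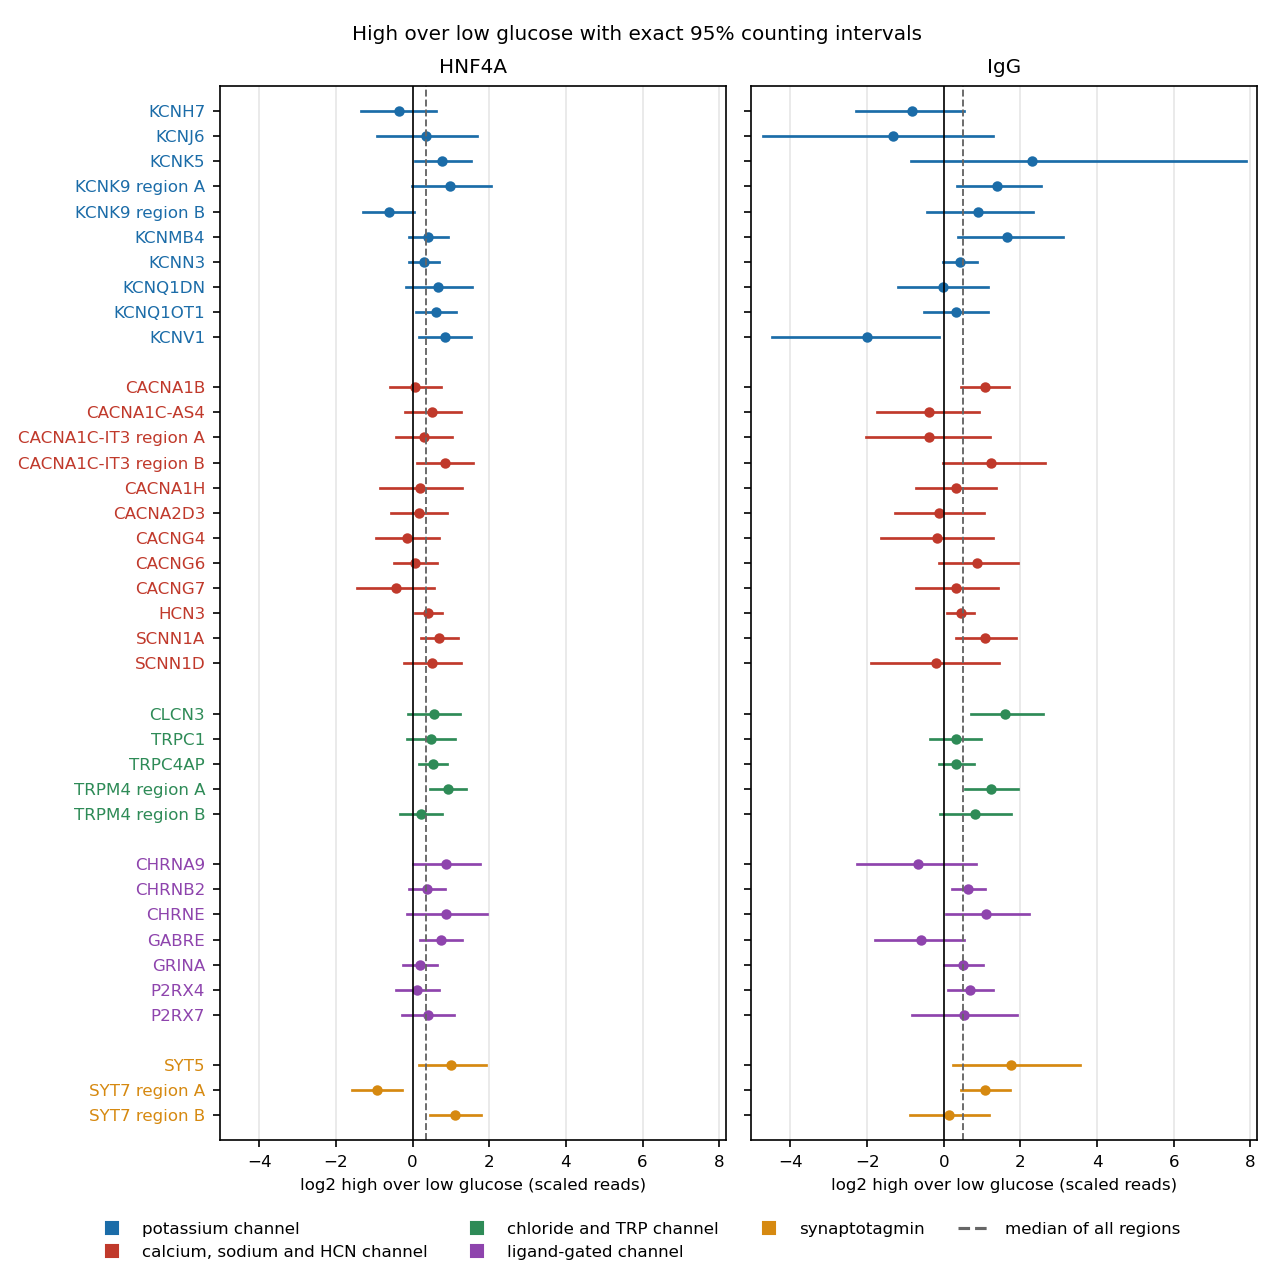
Log2 ratio of scaled reads at high over low glucose for HNF4A (left) and IgG (right) in 37 of the 40 regions, with exact 95% counting intervals and the median of all regions as a dashed line. Most HNF4A points lie near the dashed line at 0.36, SYT7 region A lies lowest at -0.92 and SYT7 region B highest at 1.1.

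Set against its own background, HNF4A over IgG was higher with high glucose in 17 of the 40 regions (42.5%), and 41.7% of all regions did the same. The median difference was -0.12, against -0.15 over all regions, and after centring 21 of 40 (52.5%) were higher. The exact conditional interval of the difference lay above 0 for 2 regions (5.00%), KCNV1 and GABRE, where 4.0% of all regions did so. It lay below 0 for 2 (5.00%), SYT7 region A and CACNA1B, where 7.42% did so. After adjustment over all regions, the exact conditional test called 1 of the 40 (2.50%), SYT7 region A, and 1.11% of all regions. For that region the difference was -2.0 (-2.93 to -1.07), with an adjusted p of 0.0022.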

How the data were processed

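The authors deposited 3 tables of comparisons, 1 for HNF4A over IgG at each glucose level and 1 for HNF4A at high over low glucose, all on the same 5326 regions. Per the submitters' processing notes, bcl2fastq, Bowtie 1.1.2, MACS, DiffBind and HOMER were used on hg19. The sources used here do not give settings or how the regions were selected. If reads of these libraries selected them, an excess over IgG is partly built in. Per the file headers and values, the deposited levels are log2 scaled reads, the fold is the log2 difference of the sides, and a p-value and FDR are given per region.

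Within each library, 100% of levels were whole reads times 1 factor (tolerance 0.01), which gave the reads and relative library sizes of 1.10 (HNF4A, high), 0.993 (IgG, high), 1 (HNF4A, low) and 0.982 (IgG, low). Listed starts were taken as counted from 0. Total depth was not known. The sides of the HNF4A table were settled because its reads equal those of the other tables.

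The tables were joined on chromosome, start and end with pandas 2.3.3. Log2 ratios, Clopper-Pearson intervals, exact binomial tests and exact conditional intervals of a ratio of ratios were computed with scipy 1.17.1, and Benjamini-Hochberg adjustment ran over all 5326 regions. The intervals were tested on simulated data. No model across conditions was fitted. Named regions were chosen by rule, as the 6 highest and 6 lowest per comparison with 30 or more reads, the region of each group with the most HNF4A reads, and up to 4 genes of each list of non-members. The rest were added, except for some genes that are counted among the 40 regions but not reported here. Members and lists were chosen with earlier results of these data known. Alternatives covered scaling, read filters, regions per gene, the members and the call rule.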

Additional observations from a re-analysis of the deposited data

Results flagged for a closer look

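For 4 regions the HNF4A over IgG ratio at high glucose differed from that at low glucose by more than its exact conditional 95% counting interval allows. SYT7 region A had a difference of -2.0 (-2.93 to -1.07), from 33 HNF4A and 68 IgG reads under high glucose and 57 HNF4A and 32 IgG reads under low glucose. CACNA1B had -0.99 (-1.92 to -0.07), where IgG was higher at high glucose, at 1.07 (0.45 to 1.71), and HNF4A stood at 0.08 (-0.58 to 0.74). KCNV1 had 2.85 (0.79 to 5.40) and rests on 3 IgG reads at high glucose. GABRE had 1.33 (0.05 to 2.64). Adjusted over all 5326 regions, the exact conditional test gave p = 0.0022 for SYT7 region A, 0.370 for CACNA1B, 0.129 for KCNV1 and 0.404 for GABRE. These compare 4 libraries, 1 per group. Of all regions, 4.0% had such an interval above 0 and 7.42% below 0.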

How the results depend on the processing

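Centring on the median of all regions moved the results most. The count of regions at least 2-fold above IgG then moved to 9 at high and 3 at low glucose, and the count with an interval above 0 for high over low glucose to 2 for HNF4A and 2 for IgG. Shares of all regions for these centred counts are not given here. Median log2 ratios became -0.0484 over IgG with low glucose, and between glucose levels 0.0511 for HNF4A, -0.081 for IgG and 0.0251 for the change in ratio. Called values that changed sign under it were TRPC4AP at -0.14 and TRPM4 region A at -0.0293 over IgG at high glucose, SYT7 region A at -0.13 over IgG at low glucose, and HCN3 at -0.0738 and GRINA at -0.00119 for IgG at high over low glucose. Called by unadjusted p in the authors' deposited tables, 3 regions stood above IgG at each glucose level. The exact binomial test adjusted over all regions called 5 for HNF4A and 7 for IgG in place of the counts of intervals, 12 and 13. These are 12.5% and 17.5% of the 40, where the test called 13.0% and 14.3% of all regions higher. Every other alternative kept the counts within 1.5 times, among them no scaling by library size, a minimum of 20 reads, 1 region per gene, and leaving out synaptotagmins or noncoding transcripts. Leaving out TRPC4AP with GRINA and the noncoding transcripts, or regions with 3 or fewer IgG reads, and adding 1 read to each library, were chosen after seeing the data and also kept them within that range. With IgG subtracted, 23 of 40 regions were higher at high glucose in place of 17. The share of all regions with IgG subtracted is not given here, so this count is not set against a background. No paired analysis was possible because each group holds 1 library. Reads per region limit the precision, and the total depth is not known.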

Other observations

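Channel genes outside the rule and partners of channels (98 listed genes) had 17 genes with a region, over 18 regions. HNF4A was at least 2-fold above IgG in 8 of the 18 at high glucose, with a median log2 ratio of 0.83, and in 11 of the 18 at low glucose, with a median of 1.16, where 41.6% and 46.8% of all regions were. ANO4, of the anoctamin family, held 64 HNF4A and 6 IgG reads at high glucose and 46 HNF4A and 12 IgG reads at low glucose, for ratios of 3.27 (2.07 to 4.77) and 1.91 (0.97 to 2.96). ANO6, a scramblase gene of the same family, stood at 1.56 (0.70 to 2.50) and 2.74 (1.38 to 4.45). Both regions of PIEZO2, a mechanically gated channel gene, were above IgG at both levels, from 1.18 to 1.44 at high and from 2.06 to 2.65 at low glucose. SHANK3, a synaptic scaffold gene, stood at 1.72 (0.84 to 2.69) and 2.70 (1.33 to 4.41).

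VDAC1, the pore gene of the outer mitochondrial membrane, had 58 HNF4A reads with high glucose and 22 with low. Its log2 ratio of high over low was 1.26 (0.53 to 2.04), with IgG at 0.43 (-0.79 to 1.70). For TPCN2, an endolysosomal channel gene, HNF4A stood at 1.23 (0.56 to 1.94) and IgG at 1.08 (-0.30 to 2.62). The change in the ratio over IgG was 0.83 (-0.67 to 2.29) for VDAC1 and 0.15 (-1.55 to 1.72) for TPCN2. Both of these intervals included 0. Genes of store-operated calcium entry were represented by STIM1, ORAI1 and ORAI2. They stood at 0.91 (0.40 to 1.45), 0.38 (-0.11 to 0.87) and 0.75 (0.21 to 1.31) over IgG at high glucose. With low glucose they stood at 1.14 (0.43 to 1.88), 0.61 (-0.02 to 1.26) and 0.31 (-0.41 to 1.06), so that STIM1 passed 2-fold there and the intervals of ORAI1 and ORAI2 included 0. GLRA1, a glycine receptor gene, and SHANK2 were below IgG at both glucose levels, and their intervals included 0. The genes of this paragraph beyond the 4 largest ratios were picked after their values were seen.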
